A study of Mus musculus with 9 samples.

Results

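Platelet glycoproteins and chemokines were followed across blood and tumour-infiltrating cells of mice that carried a hepatoma. The set held 10 genes: the chemokines Pf4 and Ppbp, the adhesion receptor genes Itga2b, Gp1ba, Gp1bb, Gp5, Gp6 and Gp9, the granule receptor gene Treml1 and the tubulin gene Tubb1. Members were found as non-control probes whose gene name, or accession paired with a symbol, was one of these. Of the 10 genes, 9 had 1 probe each, with 1 spot an array, and no probe was matched to Tubb1. In the files Pf4 is listed as Cxcl4 and Ppbp as Cxcl7. The comparison across all genes covered 14262 genes and included 8 of the 10. Pf4 was outside it because its spot on the day 0 blood array of mouse 834 was marked as non-uniform by the scanner software, and it is described separately.

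The arrays came from the same 3 mice, Balb/c athymic females with the numbers 832, 833 and 834, which received Hepa1-6 mouse hepatoma cells under the skin. Each mouse gave 1 array to each of 3 groups: the fraction of ground tumour enriched in tumour-infiltrating inflammatory cells on day 10 (TIC fraction), blood on day 10, and blood before inoculation on day 0. Sample RNA carried Cy5, and Cy3 carried blood RNA of a C57Bl/6 female that had received nothing, on all 9 arrays with no dye swap. TIC and blood RNA were extracted with different kits, so kit and tissue cannot be told apart. In RNA of whole blood or of a cell fraction, fewer platelets and less RNA per platelet cannot be told apart.

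Platelets are shed by megakaryocytes and have no nucleus, so their RNA is what the megakaryocyte passed on. Their surface receptors catch the vessel wall: the GPIb-IX-V complex (Gp1ba, Gp1bb, Gp9 and Gp5) holds von Willebrand factor, glycoprotein VI (Gp6) binds collagen, and the integrin of Itga2b and Itgb3 binds fibrinogen. Their alpha granules release chemokines, among them platelet factor 4 (Pf4) and the precursor of neutrophil-activating peptide (Ppbp). In tumour-bearing hosts, platelets are known to be drawn into tumours and their numbers in blood can change.

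The probes lie, in the files' coordinates of mouse build mm8, at chr5:91848449-91848508 (Pf4), chr5:91845144-91845203 (Ppbp), chr11:102274229-102274437 (Itga2b), chr11:70458108-70458167 (Gp1ba), chr16:18534577-18534636 (Gp1bb), chr16:30228008-30228067 (Gp5), chr6:87745297-87745356 (Gp9), chr7:3971840-3971899 (Gp6) and chr17:47832607-47832666 (Treml1). Exon and UTR annotation of that build was not used here. In RefSeq, Gp1bb overlaps Septin5, so a signal on its probe may hold RNA of both genes. No other member overlaps a gene there.

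The stretch of 250 bases before the gene start is shown for the chemokine pair, whose genes are neighbours on chromosome 5 and whose signal ratio differed between TIC and blood arrays, and for Gp9 and Gp1ba, subunits of 1 receptor complex. Sequences are RefSeq's on build GRCm38.p6, read 5′ to 3′ on the gene's strand. Capitals mark GATA letters (AGATAA or AGATAG, or either with T in first place), ETS letters (AGGAAG or AGGAAA, or either with C in first place) and TATAAA, on either strand.
Pf4, chr5:90772185-90772434, + strand: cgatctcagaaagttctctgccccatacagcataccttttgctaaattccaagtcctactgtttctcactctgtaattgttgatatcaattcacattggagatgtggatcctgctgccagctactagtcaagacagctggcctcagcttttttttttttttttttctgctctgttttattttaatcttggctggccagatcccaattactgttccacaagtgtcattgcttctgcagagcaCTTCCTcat
Ppbp, chr5:90768268-90768517, + strand: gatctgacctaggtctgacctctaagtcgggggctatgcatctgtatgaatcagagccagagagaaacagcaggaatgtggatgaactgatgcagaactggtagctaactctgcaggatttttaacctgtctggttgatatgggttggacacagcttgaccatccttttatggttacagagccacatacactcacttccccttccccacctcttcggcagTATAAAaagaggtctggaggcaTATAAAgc
Gp9, chr6:87777820-87778069, + strand: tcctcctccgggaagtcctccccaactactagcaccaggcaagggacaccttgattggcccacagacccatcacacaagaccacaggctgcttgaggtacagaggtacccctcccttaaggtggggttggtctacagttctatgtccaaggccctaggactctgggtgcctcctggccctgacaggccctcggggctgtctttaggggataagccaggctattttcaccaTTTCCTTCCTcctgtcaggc
Gp1ba, chr11:70638872-70639121, + strand: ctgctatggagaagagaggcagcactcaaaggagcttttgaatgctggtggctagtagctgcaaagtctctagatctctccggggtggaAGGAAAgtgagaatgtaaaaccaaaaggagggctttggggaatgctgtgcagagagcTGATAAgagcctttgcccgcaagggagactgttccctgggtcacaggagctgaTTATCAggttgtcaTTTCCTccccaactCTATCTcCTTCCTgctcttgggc
The Ppbp stretch held TATAAA starting 30 and 8 bases before the start, and was the 1 of 10 members with these letters, against 12.4% of 32851 promoters of the same length. In Pf4 the ETS letters began 9 bases before the start. In Gp9 a pair of ETS matches overlapped, and Gp1ba held 3 GATA and 3 ETS matches. Over the set, GATA letters were in 4 of 10 stretches against 26.5% of all promoters, and ETS letters in 9 of 10 against 57.2%. The NF-E2 letters TGAGTCA, on either strand, were in 0 of 10, against 4.46% of all. A match describes letters and is no evidence of a bound factor.

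Sample signal differed in strength between the groups. The spots with Cy5 well above background made up shares that lay between 48.2% and 55.1% on TIC arrays, 14.2% and 21.0% on day 10 blood arrays and 24.3% and 36.9% on day 0 blood arrays, against 40.2% to 50.4% in Cy3, and no spot was saturated. The TIC array of mouse 833 stood apart, with correlations of 0.88 and 0.90 to the other TIC arrays, which correlated at 0.99 with each other. As a check of the labelled cells, all 12 macrophage markers tested were well above background on each TIC array, and 2 to 7 were on each blood array. Erythroid markers, 17 in number, gave 15 to 17 on each blood array and 10 to 13 on each TIC array. For T cell markers it was 8 or 9 of 9 on TIC arrays and 1 to 6 on blood arrays, so these counts alone do not identify the cells. Of 7 hepatoma and liver genes 6 or 7 were above background on each TIC array. All 3 day 10 blood arrays shared a slide with 1 day 0 blood array, and no slide held both TIC and day 10 blood.

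All 8 members fitted across all genes were lower in the TIC fraction than in either blood. Values in this and the next paragraphs are log2 ratios of sample over the C57Bl/6 blood RNA after loess normalization within each array, in the order of mice 832, 833 and 834, and differences between groups carry the SE of the limma fit. Adjusted p-values are limma's with Benjamini-Hochberg adjustment over all genes tested, called under 0.05.

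Ppbp, the precursor of the neutrophil-attracting chemokine, had log2 ratios of -8.07, -7.74 and -7.80 in the TIC fraction, against 2.28, 1.56 and 1.25 in day 10 blood and 0.71, 0.07 and 0.64 in day 0 blood. TIC and blood arrays did not overlap. The blood values lay above the C57Bl/6 blood after loess, and below it with median centring, at -1.48, -1.63 and -2.68 in day 10 blood and -0.76, -2.00 and -2.39 in day 0 blood. It fell by 9.57 ± 0.27 in the TIC fraction relative to day 10 blood (limma adjusted p = 3.56e-07) and differed by -8.34 ± 0.27 from day 0 blood. The net Cy5 signal, spot minus local background in scanner units with no scaling between arrays, was 278, 45.4 and 135 in the TIC fraction, against 2313, 2025 and 934 in day 10 blood and 4782, 1964 and 1123 in day 0 blood. The drop of Ppbp in the TIC fraction was thus also present before any normalization.

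Of the GPIb-IX-V complex, Gp9, the small subunit needed for its surface display, had log2 ratios of -8.74, -7.61 and -7.88 in the TIC fraction, against 1.52, 1.01 and 0.90 in day 10 blood and -0.02, -1.03 and -0.02 in day 0 blood. The day 10 bloods were all above the day 0 bloods, and the TIC arrays far below both. Gp9 fell by 9.22 ± 0.36 relative to day 10 blood (limma adjusted p = 7.39e-07) and differed by -7.72 ± 0.36 from day 0 blood, and was well above background on 2 of 3 TIC arrays. Gp1ba, the subunit that binds von Willebrand factor, was well above background on no TIC array, which leaves a bound that depends on the scale. On the single-channel scale after loess and Aquantile it was at least 30.8-fold lower than in day 10 blood and at least 20.0-fold lower than in day 0 blood. The test of its log2 ratios against day 10 blood (limma adjusted p = 1.97e-06) does not cover the bound. With Cy5 alone after quantile normalization the bounds were 10.3-fold for day 10 blood and 6.49-fold for day 0 blood, and the measured log2 differences with median centring, -1.80 and -2.10, were smaller than either bound. Its log2 ratios were 0.78, 0.29 and 0.06 in day 10 blood, against -0.08, -0.70 and -0.33 in day 0 blood, which did not overlap. Gp5, the loosely attached subunit and a thrombin substrate, was not above background on any TIC array either. On the loess scale it was at least 12.2-fold lower than in day 10 blood and at least 9.82-fold lower than in day 0 blood. Its log2 ratios, and not the bound, were tested against day 10 blood (limma adjusted p = 1.22e-06). With Cy5 alone the bounds were 5.23-fold and 4.15-fold, and the log2 differences with median centring were -0.94 and -1.44.

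Gp1bb, the subunit linked to Gp1ba by a disulphide bond, had log2 ratios of -3.79, -3.58 and -3.63 in the TIC fraction, against 0.22, -0.43 and -0.26 in day 10 blood and -0.64, -1.18 and -0.80 in day 0 blood. Its difference was -3.51 ± 0.20 from day 10 blood (limma adjusted p = 2.21e-06) and -2.79 ± 0.20 from day 0 blood. It was above background on 1 of 3 TIC arrays, and its call ended with median centring in place of loess (-0.41 against day 10 blood, limma adjusted p = 0.210, and -0.59 against day 0 blood, limma adjusted p = 0.0906).

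Gp6, the collagen receptor, which signals through the Fc receptor gamma chain, had log2 ratios of -4.28, -3.65 and -3.61 in the TIC fraction, against 0.57, -0.08 and 0.33 in day 10 blood and -0.45, -0.40 and -0.36 in day 0 blood. It fell by 4.12 ± 0.21 in the TIC fraction relative to day 10 blood (limma adjusted p = 1.76e-06) and differed by -3.44 ± 0.21 from day 0 blood. With median centring its mean log2 ratios were -2.51 in the TIC fraction, -1.64 in day 10 blood and -1.38 in day 0 blood. The gaps were then smaller. Treml1, a receptor stored in alpha granules, had log2 ratios of -7.44, -6.45 and -6.81 in the TIC fraction, against 1.24, 0.78 and 0.47 in day 10 blood and 0.43, -0.01 and -0.06 in day 0 blood. Both genes were well above background on all 9 arrays, with TIC values apart from those of either blood. Treml1 fell by 7.73 ± 0.28 relative to day 10 blood (limma adjusted p = 5.48e-07) and differed by -7.02 ± 0.28 from day 0 blood. Itga2b, the alpha chain of the fibrinogen receptor, was above background on no TIC array. On the loess scale it was at least 14.6-fold lower than in day 10 blood and at least 17.3-fold lower than in day 0 blood. Its log2 ratios, and not the bound, were tested against day 10 blood (limma adjusted p = 3.79e-06). With Cy5 alone the bounds were 5.02-fold and 6.11-fold, and the log2 differences with median centring were -1.02 and -1.91.

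**Figure D1:**
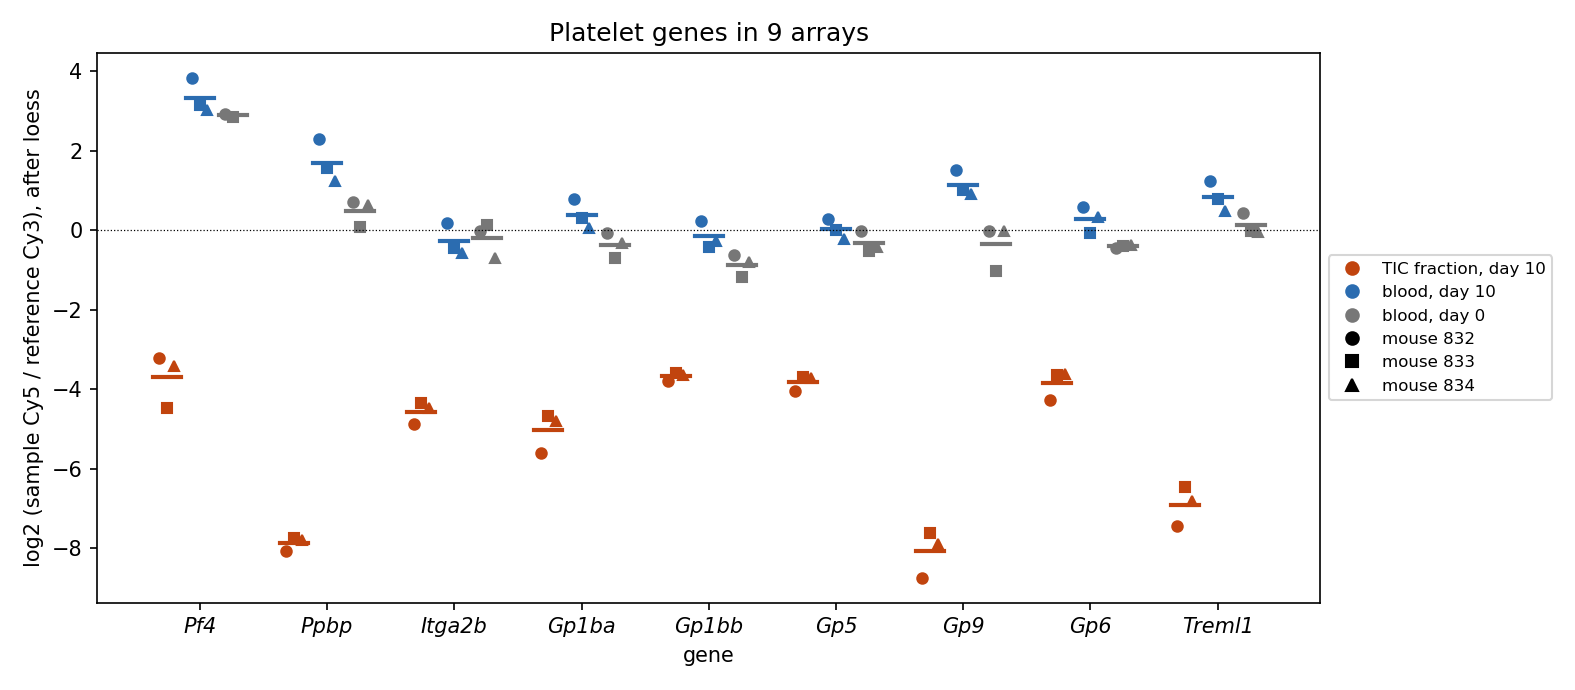
Log2 ratio of sample (Cy5) over C57Bl/6 blood RNA (Cy3) after loess for the 9 platelet genes with a probe, 1 point per array, with a line at each group mean (3 mice per group, 2 for Pf4 in day 0 blood). TIC points lie below both bloods for every gene plotted, which for Pf4 did not hold with median centring, and Gp1ba, Gp5 and Itga2b were not well above background on any TIC array.

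Over the set, 8 of 8 members were called lower in the TIC fraction than in day 10 blood, where 33.2% of all genes tested were called lower, 34.4% higher and 67.6% in either direction. Among the 8, Gp1ba, Gp5 and Itga2b were kept for the test through blood arrays alone, which favours a lower call in the TIC fraction. The members' median difference was -4.84, and -4.53 with the 3 genes not above background in the TIC fraction at their bounds on the loess scale, against 0.07 for all genes. Against day 0 blood 8 of 8 were again called lower, where 33.6% of all genes were, 31.7% being higher and 65.4% called in either direction, with a median of -4.52 (-4.22 with the bounds) against 0.01 for all genes. Both comparisons share the TIC arrays. The groups did not overlap for any of the 8 members, as for 35% of all genes lower in the TIC fraction than in day 10 blood and 34.9% lower than in day 0 blood. Every mouse had lower values in its TIC fraction than in either of its bloods for all 8 members. Without the TIC array of mouse 833, 8 of 8 stayed called lower against both bloods, with medians of -4.98 for day 10 blood and -4.66 for day 0 blood.

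The size of the drop depended on the scaling, and its direction over the set did not under those tried. With arrays centred on their medians in place of loess, the median of all genes itself moved to 1.38 for TIC minus day 10 blood and 1.16 for TIC minus day 0 blood. The members' medians were then -1.41 and -2.00, which is -2.80 and -3.16 relative to all genes, and 7 of 8 members stayed called against each blood. In that setting 10275 genes were called higher and 464 lower in the TIC fraction than in day 10 blood, against 4910 higher and 4728 lower with loess. With the deposited log ratios the medians were -8.75 and -8.25, and with Cy5 alone after quantile normalization -3.05 and -2.67. The loess curve that was subtracted at the members' intensities lay between 1.01 and 4.49 on TIC arrays, between -4.74 and -1.71 on day 10 blood arrays and between -3.73 and -0.75 on day 0 blood arrays.

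**Figure D2:**
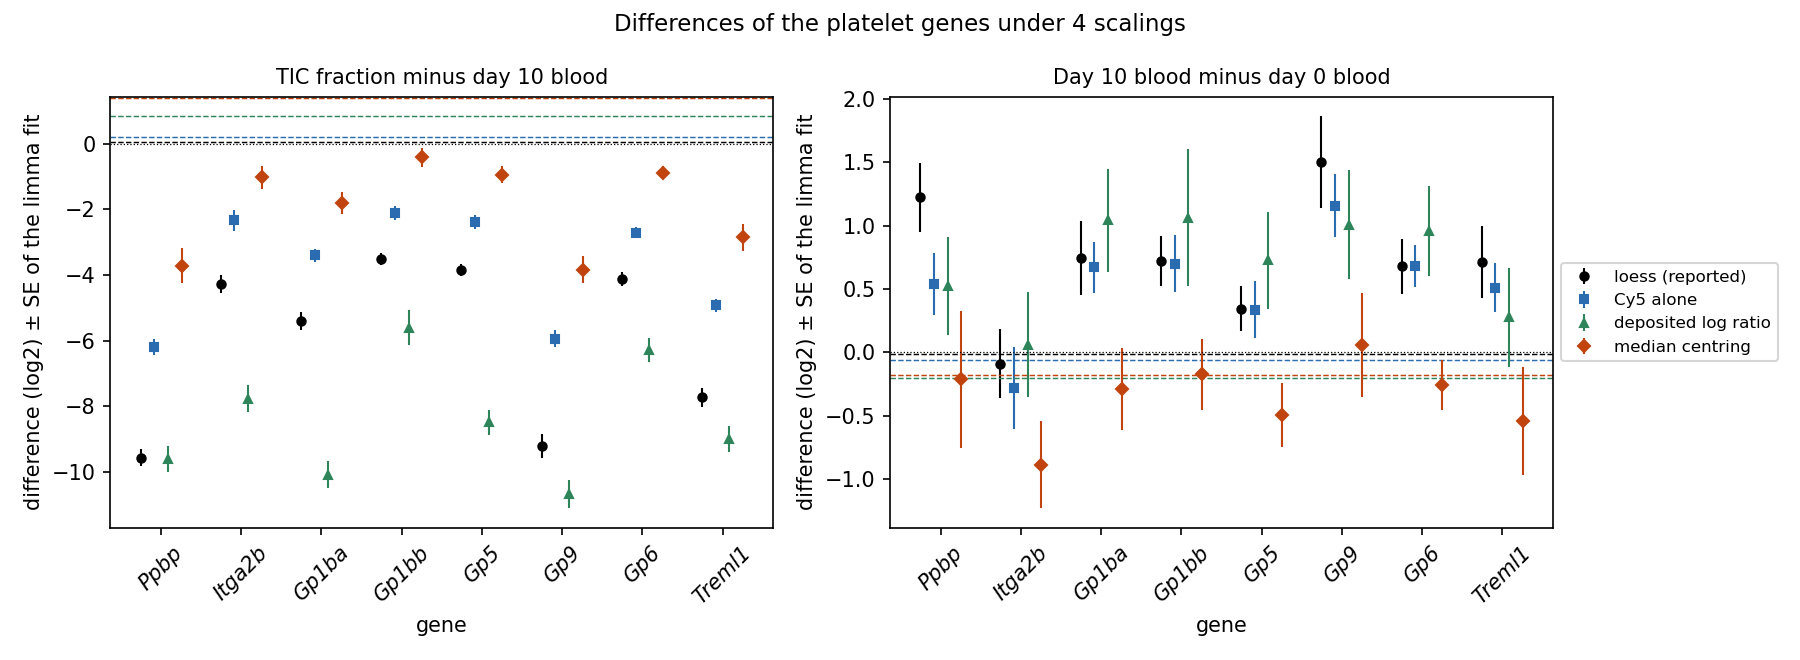
Differences in log2 units ± SE of the limma fit for the 8 tested platelet genes, TIC fraction minus day 10 blood on the left and day 10 blood minus day 0 blood on the right, under loess, Cy5 alone, deposited log ratios and median centring. Dashed lines mark the median of all genes in the same colour. The left panel is below 0 throughout, from -0.41 for Gp1bb with median centring downwards, and TIC values of Gp1ba, Gp5 and Itga2b are at background. In the right panel 6 of 8 genes turn from above to below 0 with median centring.

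Other cell markers moved with the drop. Relative to day 10 blood, 16 of 17 erythroid genes were called lower in the TIC fraction (median -5.63), 14 of 14 B cell genes (-2.92) and 8 of 13 neutrophil genes (-1.29), while 6 of 7 hepatoma and liver genes (2.66) and 7 of 12 macrophage markers (0.61) were called higher. Over all genes 33.2% were called lower and 34.4% higher. Several of the hepatoma and macrophage genes, among them Alb and C1qc, were above background on no blood array. The filter kept these through TIC arrays alone, which favours a higher call. Some erythroid and B cell genes were kept through blood arrays alone, which favours a lower call. Of the T cell genes 8 of 9 were called lower (-1.96), and of 10 endothelial genes 3 were called lower and 1 higher (-0.13). With median centring the neutrophil, T cell and endothelial medians turned to 0.25, 0.51 and 0.65, and the other 4 medians kept their sign. The members' mean Cy5 level, in log2 after quantile normalization, was 6.09, 5.96 and 6.06 in the TIC fraction, against 10.2, 9.70 and 9.50 in day 10 blood and 9.52, 9.11 and 9.11 in day 0 blood. That of the macrophage markers was 8.396, 7.678 and 7.998 in the TIC fraction, against 6.63, 6.57 and 6.57 in day 10 blood and 6.63, 6.67 and 6.70 in day 0 blood. The part of cell composition in the drop of the platelet genes was not tested.

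Pf4, the platelet factor that binds heparin, was read apart from the other members. Its log2 ratios after loess were -3.22, -4.46 and -3.42 in the TIC fraction, against 3.83, 3.16 and 3.01 in day 10 blood and 2.93 and 2.84 in day 0 blood of mice 832 and 833. The spot of mouse 834 on day 0, marked as non-uniform, read 1.69. In a fit that left out this spot, a choice made after the values were seen, Pf4 in the TIC fraction differed by -7.04 ± 0.35 from day 10 blood (limma adjusted p = 2.87e-06) and by -6.59 ± 0.39 from day 0 blood (limma adjusted p = 8.98e-06). The net Cy5 signal, with no scaling between arrays of unlike brightness, gave another picture. It was 30649, 1393 and 10207 in the TIC fraction, against 8491, 7682 and 3744 in day 10 blood and 30654, 16257 and, for the marked spot, 3001 in day 0 blood, so that TIC and blood arrays overlapped. Over all spots the median net Cy5 signal was 22.1, 13 and 9.84 on TIC arrays, against 2.38, 2.66 and 2.10 in day 10 blood and 5.57, 4.71 and 3.29 in day 0 blood.

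The call for Pf4 depended on the scaling. With median centring its differences were -0.15 ± 1.01 from day 10 blood (limma adjusted p = 0.900) and -1.67 ± 1.13 from day 0 blood (limma adjusted p = 0.217), and without the TIC array of mouse 833 the first of these turned to 1.02 ± 0.58 (limma adjusted p = 0.147). Relative to the median of all genes these values were -1.54, -2.83 and -0.44. With Cy5 alone Pf4 differed by -4.28 from day 10 blood and by -4.89 from day 0 blood, and with the deposited log ratios by -6.21 and -6.28, all called. Pf4 was well above background in Cy5 on all 3 TIC arrays. Its direction between TIC fraction and blood was therefore not settled, while Ppbp was called lower with loess, median centring, Cy5 alone and the deposited log ratios.

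A ratio of 2 spots on the same array needs no scaling between arrays. The net Cy5 signal of Pf4 over that of Ppbp was 110, 30.7 and 75.7 in the TIC fraction, against 3.67, 3.79 and 4.01 in day 10 blood and 6.41, 8.28 and 2.67 in day 0 blood, the last with the marked spot. All 3 TIC values lay above all 6 blood values, with or without mouse 833. The geometric mean ratio was 16.6-fold higher in the TIC fraction than in day 10 blood and 12.2-fold higher than in day 0 blood, each with an exact two-sided permutation p of 0.1, the smallest that 3 arrays against 3 can give. Between day 10 and day 0 blood the ratio was 0.733-fold and overlapped (exact permutation p = 0.4). Both comparisons with day 0 blood count the marked spot. The overlap of the bloods came from that spot alone, as the unmarked day 0 values, 6.41 and 8.28, lay above all 3 of day 10 blood. In the Cy3 channel, which held the same RNA throughout, it lay between 1.47 and 1.78 on the 9 arrays. A shift in this ratio shows unequal change and does not show that either gene was constant. The median net Cy5 signal over spots was 22.1, 13 and 9.84 on TIC arrays and 2.10 to 5.57 on blood arrays. Net Ppbp signal was lower on TIC arrays, so the median signal over spots also rose relative to Ppbp. A rise in the ratio to Ppbp thus does not by itself mark out Pf4.

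**Figure D3:**
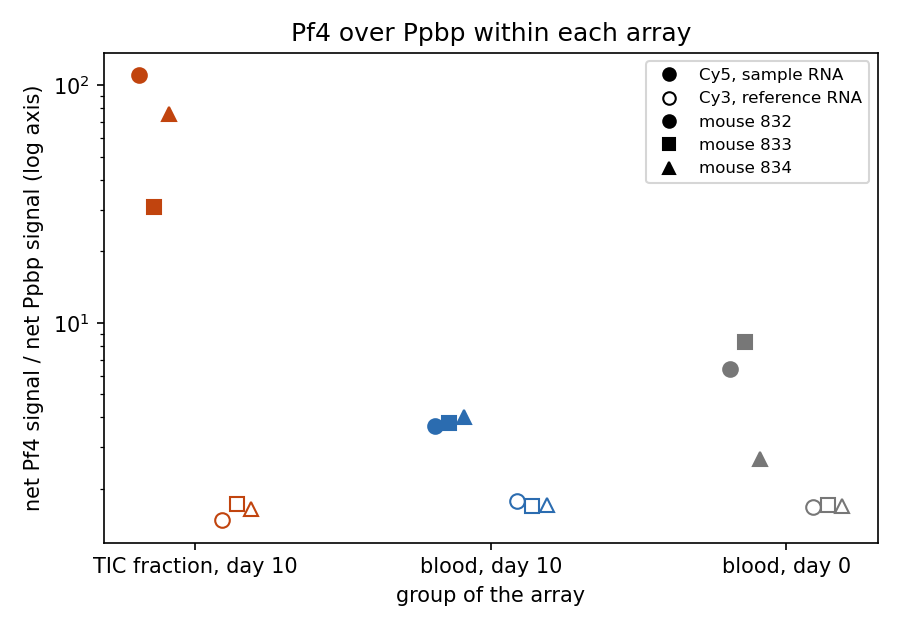
Net signal of Pf4 divided by net signal of Ppbp within each array, on a log axis, filled for the sample channel (Cy5) and open for the C57Bl/6 blood RNA (Cy3), 3 mice per group. The TIC arrays sit between 30.7 and 110 in Cy5, above day 10 blood at 3.67 to 4.01 and day 0 blood at 2.67 to 8.28, while Cy3 stays between 1.47 and 1.78. The lowest day 0 value, 2.67, uses the Pf4 spot marked as non-uniform.

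Such ratios to Ppbp were computed for 8 genes in 3 comparisons, none of which can go below p = 0.1 in an exact permutation test. The ratio of Gp9 to Ppbp was 0.211 and 0.184 in the TIC arrays of mice 832 and 834, where Gp9 was above background, against 0.483, 0.540 and 0.615 in day 10 blood and 0.385, 0.315 and 0.496 in day 0 blood. That of Gp6 was 4.91-fold higher in the TIC fraction than in day 10 blood, without overlap (exact permutation p = 0.1). Its net Cy5 signal there was low, at 34.6, 15.1 and 18.6. Gp1bb (8.43-fold), above background on 1 TIC array, was also higher than in day 10 blood without overlap. So were Itga2b (3.56-fold) and Gp5 (2.09-fold), above background on no TIC array. Their TIC ratios divide a signal at background by that of Ppbp, so they cannot show a rise of either gene. Gp1ba, above background on none, was 0.452-fold that of day 10 blood and overlapped. Against day 0 blood Itga2b (exact permutation p = 0.7) and Gp5 (exact permutation p = 0.8) overlapped, and Gp1bb did not. The ratio of Treml1 to Ppbp was 1.06-fold that of day 10 blood and overlapped (exact permutation p = 1). Between day 10 and day 0 blood Itga2b (0.351-fold), Gp5 (0.621-fold), Treml1 (0.836-fold) and Gp1ba (0.898-fold) were lower without overlap. The others overlapped, Pf4 only through its marked spot. Macrophage markers were set beside Pf4. Of the 12 macrophage markers 6 had the array order of Pf4 in Cy5 level after quantile normalization, highest in the TIC array of mouse 832, then 834, then 833, an order that 24.9% of all genes tested had. C1qc, a complement gene of macrophages, had a net Cy5 signal of 43220, 2434 and 16769 in the TIC arrays of mice 832, 833 and 834, while the median net Cy5 signal over spots was 22.1, 13 and 9.84. Csf1r, a receptor gene on the same list, had another order, at 1138, 604 and 240, with mouse 833 above mouse 834. Platelet genes were divided as well. In net Cy5 signal Ppbp had the order of Pf4, at 278, 45.4 and 135, and Treml1 did not, at 58.7, 26.8 and 24.1. The order is thus not particular to macrophage genes. The part of macrophage RNA in the Pf4 signal was not tested.

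Between the bloods, no platelet gene passed the test, and most were higher on day 10 with loess and lower with median centring. Of 14262 genes 0% were called between day 10 and day 0 blood, and 0 of 8 members were. At an unadjusted p under 0.05, 6 of 8 members were higher and 0 lower, where 8.71% of all genes were higher and 6.06% lower. The members' median difference was 0.72, against -0.01 for all genes, and 0.86, 0.78 and 0.54 within mice 832, 833 and 834. In 7 of 8 members all 3 mice had the higher value on day 10, and in 6 of 8 the groups did not overlap, as in 15.7% of all genes.

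Gp9 had the greatest difference among the members, 1.50 ± 0.36 (limma adjusted p = 0.128), and Ppbp differed by 1.22 ± 0.27 (limma adjusted p = 0.110). Within mice 832, 833 and 834 Gp9 differed by 1.55, 2.03 and 0.93, and Ppbp by 1.58, 1.49 and 0.60. For both genes mouse 834 had the smallest difference. Gp1ba differed by 0.74 ± 0.29, Gp1bb by 0.72 ± 0.20, Treml1 by 0.71 ± 0.28 and Gp6 by 0.68 ± 0.21, with limma adjusted p from 0.163 to 0.293. Gp5 had log2 ratios of 0.27, 0.01 and -0.22 in day 10 blood, against -0.03, -0.51 and -0.42 in day 0 blood, which overlapped (0.34 ± 0.18, limma adjusted p = 0.437). Itga2b was the 1 member with no difference in a common direction, at 0.18, -0.45 and -0.58 in day 10 blood, against -0.03, 0.14 and -0.69 in day 0 blood (-0.09 ± 0.27, limma adjusted p = 0.970). Pf4 differed by 0.45 ± 0.39 (limma adjusted p = 0.722), and by 0.84 with its marked spot kept. Its sign turned under the other scalings, at -1.52 with median centring (limma adjusted p = 0.776), -0.61 with Cy5 alone (limma adjusted p = 0.454) and -0.06 with the deposited log ratios (limma adjusted p = 0.955).

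The calls between the bloods moved with the setting. Gp9 passed with Cy5 alone (1.16, limma adjusted p = 0.0380) and in a fit of the bloods alone (limma adjusted p = 0.0404), and Ppbp passed among genes above background on all 9 arrays (limma adjusted p = 0.0477). Without the TIC array of mouse 833, which enters only through the shared spread, Gp9 (limma adjusted p = 0.0312) and Ppbp (limma adjusted p = 0.0327) passed. With median centring the members' median turned to -0.28, against -0.18 for all genes, and 7 of 8 were below 0, with Gp9 at 0.05. Within the slide that held 3 day 10 bloods and 1 day 0 blood, the median was 0.68. Beside these values, 17 of 17 erythroid genes were higher on day 10 with none called (median 1.02, and -0.07 with median centring), and 13 of 14 B cell genes lower with none called (-0.80). With none called, 9 of 9 T cell genes were also higher (median 0.47, and -0.26 with median centring) and 11 of 13 neutrophil genes lower (-0.51). Their part in the platelet differences was not tested.

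The other genes of the platelet and megakaryocyte programme were read from the same fit, in 4 lists of 57 genes, of which 52 were tested. In the TIC fraction relative to day 10 blood 41 of 52 were called lower and 3 higher, with a median of -2.38. Under median centring that median was 0.19, against 1.38 for all genes, with 18 of 52 called higher and 14 lower, against 10275 higher and 464 lower of 14262 genes. The sign of the wider set's median thus turned with the scaling, while it lay below that of all genes under both. Relative to day 0 blood 41 were called lower and 4 higher (median -2.08, and -0.21 under median centring, where all genes had 1.16). Under median centring the granule list's median turned to 0.85 against day 10 blood and 0.70 against day 0 blood, and the signalling list's to 0.75 against day 10 blood, all below the medians of all genes in that setting.

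Among receptors, 11 of 13 were called lower than in day 10 blood. Itgb3, the partner chain of Itga2b, differed by -7.36 (its second probe by -1.08), P2ry12, the ADP receptor, by -5.49 and Cd226, an adhesion receptor, by -4.97. Cd226 was well above background on 1 of 3 TIC arrays, and its other probes gave -3.94 to -0.74. Among granule and plasma proteins, 10 of 14 were called lower, among them Vwf, the ligand of the GPIb complex (-7.06, its second probe -4.78), F13a1, the clot-stabilizing transglutaminase subunit (-5.10), and F5, coagulation factor V (-2.97, above background on 1 of 3 TIC arrays). Mmrn1, which stores factor V in alpha granules, was at least 47.9-fold lower on the loess scale and at least 15.9-fold with Cy5 alone. Pdgfa, a platelet-derived growth factor chain, was called higher in the TIC fraction, by 1.26 ± 0.26 (limma adjusted p = 0.00276). Pdgfb, another chain of that family, was not above background on any day 10 blood array and was at least 1.16-fold higher in the TIC fraction on the loess scale and at least 1.07-fold with Cy5 alone.

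Among signalling and contractile genes, 13 of 16 were called lower than in day 10 blood. Myl9, a myosin light chain, differed by -9.22, Plek, the protein kinase C substrate pleckstrin, by -7.50 (second probe -5.05), Alox12, the platelet lipoxygenase, by -6.89 (second probe -4.82) and Rasgrp2, the exchange factor for Rap, by -5.62 (its second probe by -0.71). Among megakaryocyte transcription factors 7 of 9 were called lower: Nfe2, needed for platelet release, by -5.04, Fli1 by -2.62 and Gata1 by -1.77, with Tal1 at least 8.89-fold lower on the loess scale and at least 5.27-fold with Cy5 alone. Against day 0 blood, which shares the TIC arrays, the receptors differed by -6.78 (Itgb3, second probe -0.94), -5.14 (Cd226, other probes -3.94 to -0.72) and -5.12 (P2ry12). The granule genes differed by -5.82 (Vwf, second probe -3.79), -4.53 (F13a1) and -2.79 (F5), and Mmrn1 was at least 32.1-fold lower on the loess scale and at least 10.2-fold with Cy5 alone. Myl9 differed by -8.71, Plek by -6.83 (second probe -4.92), Alox12 by -6.31 (second probe -4.23) and Rasgrp2 by -4.94 (second probe -0.59). Among the factors Nfe2 differed by -4.36, Fli1 by -3.09 and Gata1 by -1.54, and Tal1 was at least 8.92-fold lower on the loess scale and at least 4.67-fold with Cy5 alone. Tuba4a, an alpha-tubulin of platelets, was called higher than in day 0 blood by 0.67, while its other probes gave -0.20 and -0.21.

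Between the bloods 0 of these 52 genes were called by limma, with 6 higher and 2 lower at an unadjusted p under 0.05, where 8.71% of all genes were higher and 6.06% lower. Of the 52, 41 were above 0, against 6747 of 14262 genes, and the median was 0.21 with loess and -0.49 with median centring. Vwf had the greatest difference among the lists, 1.24 ± 0.32 (limma adjusted p = 0.148, second probe 0.99), and Nfe2 differed by 0.68 ± 0.17 (limma adjusted p = 0.142). Of the receptors Clec1b, the podoplanin receptor, differed by 0.92, Itgb3 by 0.57 (second probe 0.14) and P2rx1, an ATP-gated channel, by 0.20. Of the granule genes Mmrn1 differed by 0.67, F13a1 by 0.57 and Selp, the adhesion molecule P-selectin, by 0.35. Of the signalling genes Rasgrp2 differed by 0.68 (second probe 0.13), Tuba4a by 0.59 (other probes 0.29 and 0.69), Ptgs1, a prostaglandin synthase, by 0.55 and Plcg2, a phospholipase, by -0.94. Of the factors Runx1 differed by 0.51, Gata1 by 0.23 and Fli1 by -0.47 (second probe -0.09). None of these passed the adjusted threshold in this fit.

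**Figure D4:**
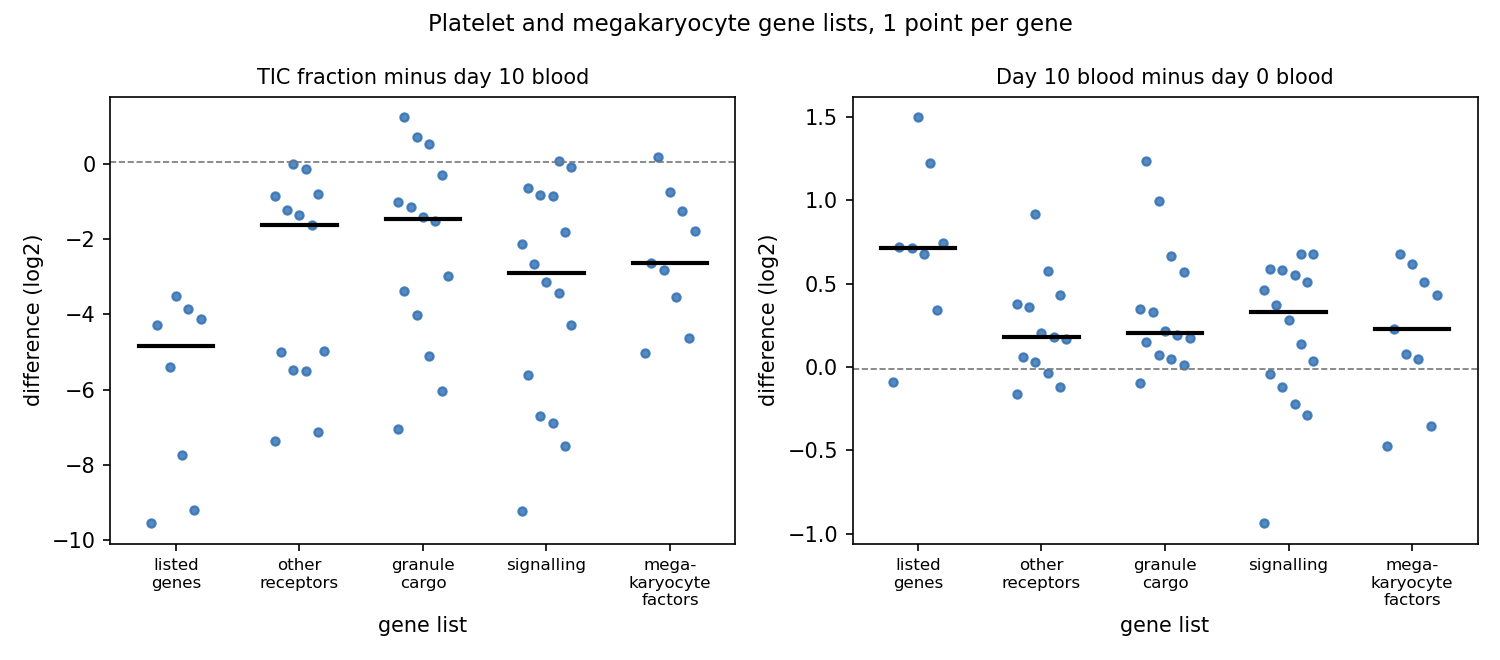
Differences in log2 units for the 8 tested members (listed genes) and 4 other platelet and megakaryocyte lists, 1 point per gene, with the list median as a bar and the median of all genes as a dashed line. On the left, TIC fraction minus day 10 blood, the members' median is -4.84 and the other lists' medians lie between -2.90 and -1.45. On the right, day 10 blood minus day 0 blood, they are 0.72 and 0.18 to 0.33.

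The members varied together. Over the 9 arrays the log2 ratios of pairs of members correlated between 0.965 and 0.999, as the gap between TIC and blood sets nearly all of that, and over the 6 blood arrays between -0.15 and 0.99 with a median of 0.87. Points in these correlations share mice, slides and the Cy3 RNA. Among 11935 named genes the highest Pearson correlations with the members' mean over the 9 arrays were those of Mmrn1, Nfe2, Mxi1, Lrrn3 and Trim45 (0.998 to 0.999). Over the 6 blood arrays they were those of Pcolce2, Nfe2, Pls1, Rac1 and Clu (0.992 to 0.999). Mmrn1, Nfe2 and Clu are also on the platelet and megakaryocyte lists.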

How the data were processed

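Deposited scanner tables of 9 two-colour Agilent arrays gave spot and background intensity; the file headers name Feature Extraction 10.5.1.1 and the submitters' processing notes give 9.1.3.1. The deposited value table holds the same log10 ratios of Cy5 over Cy3, with a median of 0 over all spots of each array, and served as an alternative. Of 45018 spots an array, 43379 were not controls. Spots with non-uniform local background (0 to 103 an array) were set aside, then normexp (offset 50) and within-array loess were applied, with control and outlier spots at weight 0. Probes with Cy5 well above background on 3 or more of the 9 arrays were kept, with the brightest probe per gene, giving 14262 genes. This filter can keep a gene only through the groups where it is high, which favours a call. Log2 ratios were fitted with limma 3.58.1 in R 4.3.3, group only, 6 residual degrees of freedom, Benjamini-Hochberg threshold 0.05. The fit was tested on simulated data. The number of arrays limits the precision, and p-values measure the spread between these samples.

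Bounds for genes without signal compare log2 means of single channels after loess and Aquantile steps, where dye bias can remain, and carry no test. Bounds with Cy5 alone were added after seeing the data. The members, lists and settings were chosen with earlier results of these data known. All members are named, as are up to 4 genes of each other platelet list with the smallest p, the 5 most alike genes, and up to 2 markers per cell type. Some genes that this rule names are not reported here. The same mouse gave all 3 groups, so mouse number pairs the samples, and a fit with mouse as a block was run. Deviations from group means correlated at 0.19 to 0.35 between bloods of a mouse and at -0.06 to 0.06 between TIC and blood. Gene names were updated through a RefSeq table of GRCm38.p6.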

Additional observations from a re-analysis of the deposited data

How the results depend on the processing

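The drop of the 8 members in the TIC fraction kept its direction under every alternative run, with 7 of 8 called under median centring, and 8 of 8 stayed called with mouse as replicate block, slide as a block, deposited log ratios and Cy5 alone. With slide as a block, TIC fraction and day 10 blood, which share no slide, are compared only through the day 0 bloods. The TIC array of mouse 832, alone on its slide, adds nothing to that fit. Medians against day 10 and day 0 blood were -8.75 and -8.25 (deposited log ratios), -1.41 and -2.00 (median centring), -3.05 and -2.67 (Cy5 alone), and -7.73 and -7.02 among genes above background on all 9 arrays, a filter that left 3 members, all 3 called, and 29 called of 34 other platelet genes against day 10 blood. Leaving out single arrays gave medians from -5.00 to -4.62 against day 10 blood and from -4.66 to -4.29 against day 0 blood. The cause of these shifts was not tested.

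Between the bloods, members called numbered 1 with Cy5 alone, 1 in the fit of the 2 groups alone and 1 with the filter on all 9 arrays, and 0 to 2 with single arrays left out. Other platelet genes called numbered 1 in the fit of the 2 groups alone (Tuba4a, adjusted p = 0.0268 in limma) and 0 to 2 with single arrays left out (Nfe2 and Tuba4a without the TIC array of mouse 833). The cause was not tested. Leaving out single arrays moved the members' median between 0.53 and 0.85. With median centring the median was -0.28, with Gp1ba at -0.29, Gp1bb at -0.18, Gp5 at -0.50, Gp6 at -0.26, Ppbp at -0.21 and Treml1 at -0.54. Itga2b turned to 0.058 with deposited log ratios, 0.40 with slide as a block, and -0.34 to 0.074 with single arrays left out. Over all genes, 0 were called, 1058 without the TIC array of mouse 833, 18 without the day 0 blood array of mouse 834, 562 with Cy5 alone, 761 with deposited log ratios, 748 in the fit of the 2 groups alone, 147 of 3911 with the filter on all 9 arrays and 32 with mouse as replicate block, which left the median at 0.72 and changed no member's call. Slide as a block called 4276 genes between TIC fraction and day 10 blood, against 9638. Members with Cy5 signal near background in the TIC fraction have uncertain sizes there.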
